A study of Mus musculus with 9 samples.

Results

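The elastic fibre genes described here are 10 genes of the mouse aorta: Eln, Fbn1, Mfap4, Mfap5, Fbln1, Fbln2, Fbln5, Emilin1, Lox and Loxl1. They were chosen by name, as elastin, microfibril, fibulin and crosslinking genes, from the 54532 genes of the deposited table. The choice was made with earlier results of these data known. All 10 were among the 13883 genes expressed highly enough to be tested, which required at least 1 FPKM in at least 3 libraries. FPKM is fragments per kilobase of a gene, with a scaling of each library that is described with the processing.

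The study sequenced RNA from 9 aortas of Apoe-/- mice, animals without apolipoprotein E that develop atherosclerosis. Of these, 3 came from mice on a chow diet (CD), 3 from mice on a high fat diet (HFD), and 3 from mice on a high fat diet that also received ammonium iron(III) citrate into the peritoneum (HFD_IO). The mice entered at 6 to 8 weeks of age and were kept on the regimen for 24 weeks. All 3 groups carry the Apoe disruption, so no aorta with intact Apoe serves as a reference, and no group received iron on chow. The labels do not mention a vehicle injection for CD or HFD. Libraries are named by their column in the table, which ties each to its group only. Nothing in the labels says more about how the 3 aortas of a group relate, so p-values measure the spread between these aortas.

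Elastic fibres give the aorta its recoil. Smooth muscle cells secrete tropoelastin, which is deposited onto a scaffold of fibrillin microfibrils and then crosslinked into an insoluble core. Emilins and some fibulins sit at the interface of core and microfibril and help the fibre to assemble, and enzymes of the lysyl oxidase family make the crosslinks. Most elastin of the arterial wall is laid down early in life and turns over slowly, so a messenger RNA level in an adult aorta says nothing of how much fibre is present.

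The coding sequences show what each gene contributes, and 7 short stretches of them are given because they show 2 short features that recur among these proteins, a repeat of elastin and a tripeptide that integrins bind. They were read from GENCODE M21 transcripts on GRCm38, 5′ to 3′ on the coding strand, taking the longest coding sequence of each gene. In elastin, repeats of Val-Pro-Gly-X-Gly make up part of the extensible core, and the capitals mark the codons of such repeats. The elastin stretch lies at chr5:134714020-134715271 on the minus strand and is split there by an intron.
Eln: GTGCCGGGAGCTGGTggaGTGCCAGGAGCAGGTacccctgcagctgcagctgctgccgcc
This stretch starts at residue 512 and runs from the repeats into a string of alanines, a kind of segment where crosslinks form. The reading frame of Eln holds 8 such repeats in 860 residues over 37 exons, and 36.3% of the residues are glycine. Only 4 of 21562 coding genes hold at least 3 of these repeats.

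The second feature is Arg-Gly-Asp, the tripeptide through which several integrins grip matrix proteins. It occurs in 6 of the 10 genes, and not in Eln, Fbln1, Lox or Loxl1, against 7.25% of 21562 coding genes. In the 27 coding bases shown for each, the capitals mark the Arg-Gly-Asp codons.
Fbn1: atccgacccCGGGGAGACaatggagat
Fbln2: tctgtccccAGAGGTGATcttgatggc
Fbln5: gaggcttgtCGTGGGGACatgatgtgt
Mfap4: tctgggatcCGGGGAGATgctctggag
Mfap5: agtggtcaaCGCGGAGATgatgtgcct
Emilin1: ctgcaagccCGTGGGGATgagggttgt
These lie at chr2:125345964-125345990 (minus strand, residue 1543 of Fbn1), chr6:91234327-91250859 (plus, residue 421 of Fbln2) and chr12:101809918-101809944 (minus, residue 67 of Fbln5). The others lie at chr11:61485787-61486045 (plus, residue 28 of Mfap4), chr6:122515368-122520589 (plus, residue 30 of Mfap5) and chr5:30918139-30918165 (plus, residue 578 of Emilin1). An intron splits the stretch in Fbln2, Mfap4 and Mfap5. Whether each tripeptide is exposed or bound by an integrin cannot be read from these letters. Cysteine made up 12.6% of residues in Fbn1 and 8.76% to 10.2% in the 3 fibulins, 4.88% in Mfap5, 1.98% to 2.92% in Mfap4, Lox, Emilin1 and Loxl1, and 0.233% in Eln.

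Read totals lay between 16660963 and 18308450 in the 9 libraries, and 1 read in a gene of 1 kilobase was worth 0.0541 to 0.0615 FPKM. Eln alone held 26951 to 114195 reads per library, so counting error was small beside the differences between aortas. Every pair of aortas in a group differed by more than sampling noise, with a chi-square per degree of freedom of 5.97 to 51 over genes. One chow library, CD_1, was the lowest of its group for 9 of the 10 genes, and HFD_IO_2 was the lowest of its group for 8. Apoe itself was listed at 9.73 to 21.9 FPKM over the 9 libraries.

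In chow-fed aortas the levels, which are per gene length, ran from Eln at the top (699 ± 152 FPKM, SD, n = 3) to Fbn1 at the bottom (24.6 ± 6.52). Mfap4 followed Eln at 303 ± 57.4, and both stood apart from all others in every chow library. Loxl1 (122 ± 19.5), Mfap5 (115 ± 9.10), Fbln5 (96.5 ± 12.5), Fbln2 (82.1 ± 23.7), Fbln1 (71.2 ± 8.46) and Lox (66.0 ± 3.18) came next, and each overlapped its neighbour in that order. Emilin1 (38.8 ± 14.1) lay below Lox without overlap, and its range met that of Fbn1. With high fat diet the order at the top changed: Mfap4 exceeded Eln in 2 of 3 HFD libraries and in none of the 3 CD or 3 HFD_IO libraries.

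**Figure D1:**
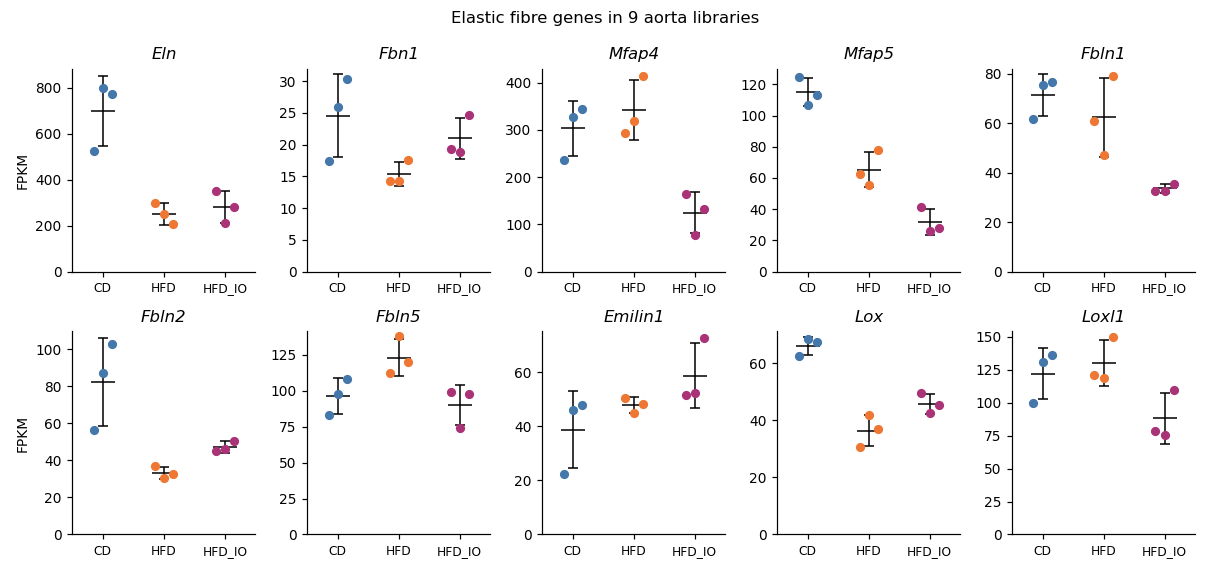
FPKM of each elastic fibre gene in the 9 aorta libraries (points; CD blue, HFD orange, HFD_IO purple), with the group mean and SD as bars on linear axes that start at 0. Eln lies at 524 to 798 FPKM in CD and at 205 to 350 in the other 6 libraries, while Mfap5 is lower in each group than in the one to its left.

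Under high fat diet the messages of elastin, of the crosslinker Lox and of some microfibril and fibulin genes were lower than on chow, while the other genes did not pass the test. Eln, Fbln2, Lox, Mfap5 and Fbn1 fell, which is 5 of the 10 genes, and none rose. Of all tested genes, 17.6% were called lower and 21.8% higher in this comparison. The median change of the 10 genes was -0.41 on the log2 scale of FPKM + 1, beside 0.06 over all tested genes. The HFD and CD libraries did not overlap for 5 of the 10 (Eln, Fbln2, Fbln5, Lox and Mfap5), beside 50.7% of all tested genes. The calls are of limma's test, with p adjusted over all 13883 genes in each comparison.

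Eln (ENSMUSG00000029675, chromosome 5, 134702593 to 134747323, minus strand, GRCm38) encodes tropoelastin, the monomer of the elastic core. It was at 524, 798 and 774 FPKM in CD_1, CD_2 and CD_3, and at 299, 249 and 205 in HFD_1, HFD_2 and HFD_3. Every HFD value was below every chow value, and the lowest chow value came from CD_1. The mean was 64.1% lower, a log2 change of -1.47 (SE 0.241, adjusted p = 0.00246). With the mean of the skeletal muscle markers as a covariate the change was -1.15 and the adjusted p 0.0508. An overlapping antisense gene, Gm30003, was at 0.08 to 0.304 FPKM, small beside Eln.

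Fbln2 (ENSMUSG00000064080, chromosome 6, 91212455 to 91272540, plus strand) encodes fibulin-2, which binds elastin and fibrillin. It was at 56.2, 87.3 and 103 FPKM in the chow libraries and at 36.7, 30.7 and 32.4 in the HFD libraries. The groups did not overlap, and the change was -1.24 (SE 0.197, adjusted p = 0.00218).

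Lox (ENSMUSG00000024529, chromosome 18, 52516069 to 52529867, minus strand) encodes lysyl oxidase, the copper enzyme that starts the crosslinking of elastin and collagen. It was at 62.4, 68.3 and 67.4 FPKM on chow, the tightest chow values relative to their mean among the 10 genes, and at 30.7, 41.7 and 36.8 on high fat diet. No values overlapped, and the change was -0.85 (SE 0.124, adjusted p = 0.00157). An antisense gene, AC161119.1 (52528661 to 52577325), overlaps only the 5′ end of Lox. It is not among the genes of the deposited table, and the strand setting of the counting is not known.

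Mfap5 (ENSMUSG00000030116, chromosome 6, 122505845 to 122529290, plus strand) encodes a small glycoprotein of microfibrils. It was at 125, 107 and 113 FPKM on chow and at 62.6, 55.6 and 77.8 on high fat diet, with no overlap. The change was -0.82 (SE 0.19, adjusted p = 0.00998). With a covariate for adipocyte markers the change was -0.695 (adjusted p = 0.104), and with one for skeletal muscle markers -0.726 (adjusted p = 0.118).

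Fbn1 (ENSMUSG00000027204, chromosome 2, 125300594 to 125507993, minus strand) encodes fibrillin-1, the backbone of the microfibril. It was at 17.5, 26.0 and 30.3 FPKM on chow and at 14.3, 14.2 and 17.6 on high fat diet. CD_1 lay just below HFD_3, so the groups overlapped. The change was -0.61 (SE 0.196, adjusted p = 0.0345), and the call ended without CD_2 (0.101), CD_3 (0.118), HFD_1 (0.0862) or HFD_2 (0.0994), and also with no filter (0.0751), with the 2 groups alone (0.0557), with gene length trends removed (0.141) and with the adipocyte (-0.532, adjusted p = 0.211) or skeletal muscle covariate (-0.625, adjusted p = 0.18). Gm9913, on the opposite strand of Fbn1, was at 0.0214 to 0.385 FPKM.

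The other 5 genes did not pass the test between HFD and CD. Mfap4, a microfibril-associated protein with a fibrinogen-like domain, changed by 0.18 (95% interval -0.45 to 0.80, adjusted p = 0.632). Loxl1, the lysyl oxidase relative that acts on elastin, changed by 0.09 (-0.33 to 0.51, adjusted p = 0.717), and Fbln1 by -0.21 (-0.61 to 0.19, adjusted p = 0.363). For Fbln5, which tethers tropoelastin to cells and microfibrils, every HFD library (112, 138 and 120 FPKM) was above every chow library (83.3, 97.7 and 108), and the difference of 0.36 (0.01 to 0.70) had an adjusted p of 0.0949. Fbln5 was called higher with gene length trends removed (0.47, adjusted p = 0.0328) and with the adipocyte covariate (0.602, adjusted p = 0.0497). Emilin1, a glycoprotein at the core-microfibril interface, was at 22.5 FPKM in CD_1, 46.0 in CD_2 and 47.8 in CD_3, against 50.5, 44.8 and 48.3 in HFD. Its difference of 0.37 (-0.23 to 0.97, adjusted p = 0.291) was 0.03 without CD_1. With the values rescaled to TPM, which moved the median of all genes to -0.295, the signs of 4 of these uncalled differences turned (Mfap4 -0.22, Loxl1 -0.30, Fbln5 -0.04 and Emilin1 -0.015), and Fbln1 was called lower at -0.61.

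Adding iron to the high fat diet went with lower levels of a partly different set of the genes, with Mfap5 in both sets. Eln did not pass the test. Mfap4, Mfap5, Fbln1 and Loxl1 were lower in HFD_IO than in HFD, which is 4 of the 10 genes, and none was called higher. Of all tested genes 14.5% were called lower and 14.1% higher. The median change of the 10 was -0.155, beside 0 over all tested genes. The groups did not overlap for 9 of the 10, all but Eln, beside 48.5% of all tested genes. Of those 9, Fbn1, Fbln2, Lox and Emilin1 were higher in HFD_IO and the other 5 lower.

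Mfap4 (ENSMUSG00000042436, chromosome 11, 61485431 to 61488900, plus strand) was at 293, 319 and 413 FPKM in the HFD libraries and at 165, 77.6 and 133 in the HFD_IO libraries. Every HFD_IO value was also below every chow value (237, 327 and 344). Against HFD the mean was 63.4% lower, a change of -1.49 (adjusted p = 0.006); with the skeletal muscle covariate it was -1.56 (adjusted p = 0.0506). Mapk7 overlaps the end of Mfap4 on the opposite strand and was at 4.75 to 10.1 FPKM.

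Mfap5 was at 62.6, 55.6 and 77.8 FPKM in HFD and at 41.6, 25.8 and 27.8 in HFD_IO, again with no overlap, a change of -1.04 (adjusted p = 0.00577). It was the only one of the 10 genes called lower in both comparisons. Those comparisons share the 3 HFD libraries.

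Fbln1 (ENSMUSG00000006369, chromosome 15, 85205949 to 85286535, plus strand) encodes fibulin-1, which lies within the elastic core of the fibre. It was at 61.5, 75.5 and 76.7 FPKM on chow, 61.0, 47.0 and 79.0 in HFD, and 32.6, 32.6 and 35.5 in HFD_IO. The HFD_IO values were the closest together of the 3 groups and lay below all others. The change against HFD was -0.84 (SE 0.177, adjusted p = 0.00969), beside -0.77 with the adipocyte covariate (adjusted p = 0.0539) and -0.93 with the skeletal muscle covariate (adjusted p = 0.0593).

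Loxl1 (ENSMUSG00000032334, chromosome 9, 58287738 to 58313186, minus strand) was at 121, 119 and 150 FPKM in HFD and at 78.5, 75.5 and 110 in HFD_IO. The change of -0.57 (adjusted p = 0.0466) lay close to the threshold. The call ended in 16 of 25 alternatives. Among them were the fits without any 1 of CD_2, CD_3, HFD_1, HFD_2, HFD_3, HFD_IO_1 or HFD_IO_2, with adjusted p from 0.0597 to 0.148. Others were TPM (0.118), quantile normalization (0.302), library totals (0.0535), no filter (0.103) and the 2 groups alone (0.0533). The rest were gene length trends removed (0.0877), the adipocyte (0.138) and skeletal muscle (0.183) covariates, and the fit without CD_1 and HFD_3 (0.0848).

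Among the genes that did not pass between HFD_IO and HFD, Eln was at 350, 210 and 283 FPKM in HFD_IO. That range overlaps the 205 to 299 FPKM of HFD. The difference was 0.15 (95% interval -0.40 to 0.69, adjusted p = 0.673). Fbln2 was at 45.0, 45.9 and 50.7 FPKM in HFD_IO, above all HFD and below all chow values, with a difference of 0.49 from HFD (adjusted p = 0.0905). Lox, at 49.5, 42.6 and 45.3, lay between the other groups in the same way (0.33, adjusted p = 0.0741). Fbn1 was at 19.4, 18.9 and 24.7 FPKM (0.42, adjusted p = 0.137), and Fbln5 at 98.8, 73.9 and 97.6 (-0.46, adjusted p = 0.0527). Without CD_1, which enters the shared estimate of spread, Fbn1 (0.0421) and Fbln2 (0.0104) were called higher and Fbln5 (0.0366) lower. Emilin1 was at 51.7, 52.2 and 72.6 FPKM, each above every HFD value, with a difference of 0.28 (adjusted p = 0.461).

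Against chow, aortas with high fat diet and iron had lower Mfap5, Eln, Mfap4, Fbln1, Fbln2 and Lox, 6 of the 10 genes, and none was called higher. Of all tested genes 15% were called lower and 17.5% higher. The median of the 10 was -0.63, beside -0.01 over all tested genes, and the groups did not overlap for 7 of the 10, beside 47% of all tested genes. Mfap5 changed most, by -1.85 (adjusted p = 0.00014), from 115 ± 9.10 to 31.7 ± 8.59 FPKM. Eln and Mfap4 each changed by -1.32 (adjusted p = 0.00313 and 0.00613), and Fbln1 by -1.06 (adjusted p = 0.00201).

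Fbln2 (-0.75, adjusted p = 0.0184) and Lox (-0.52, adjusted p = 0.0115) were also lower in HFD_IO than in CD, and these calls were less firm. Fbln2 missed the threshold without CD_2 (0.0633), CD_3 (0.0611), HFD_IO_1 (0.0544) or HFD_IO_2 (0.0601), and Lox reached 0.05 without HFD_IO_2. Emilin1 (ENSMUSG00000029163, chromosome 5, 30913402 to 30921277, plus strand) was the only one of the 10 whose HFD_IO values all lay above chow. Its difference of 0.65 (0.05 to 1.24) had an adjusted p of 0.0933 and was 0.30 without CD_1. Fbln5 (ENSMUSG00000021186, chromosome 12, 101746565 to 101819055, minus strand), Fbn1 and Loxl1 did not pass, with differences of -0.10, -0.19 and -0.48. This comparison shares its chow libraries with the first and its HFD_IO libraries with the second, so it is not a further observation of either.

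**Figure D2:**
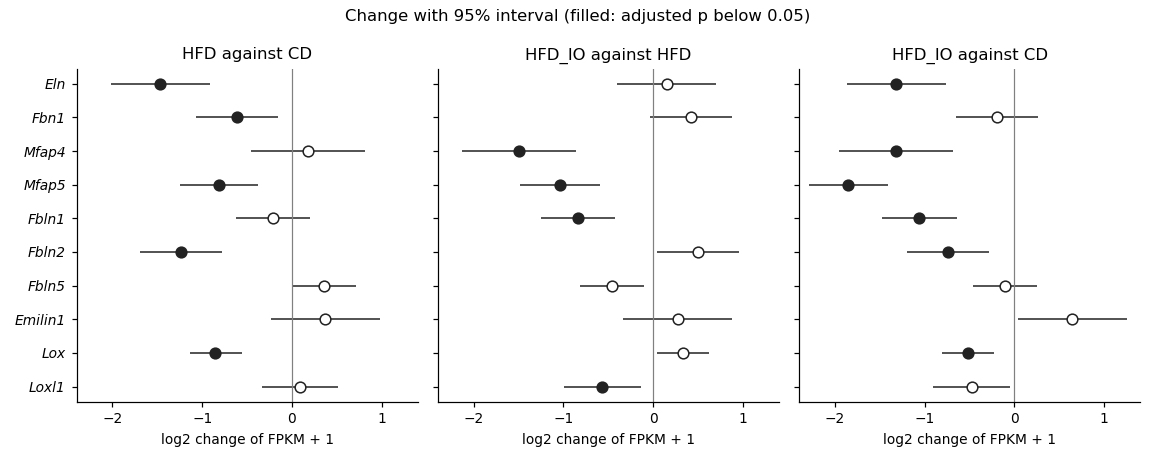
Log2 change of FPKM + 1 (horizontal axis) of the 10 genes in the 3 comparisons, with 95% intervals from limma; filled points have an adjusted p below 0.05. All 15 filled points lie left of 0, 5 in HFD against CD, 4 in HFD_IO against HFD and 6 in HFD_IO against CD.

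Over the 3 groups together, limma's F test called 6 of the 10 genes (Eln, Fbln1, Fbln2, Lox, Mfap4 and Mfap5), beside 52.1% of all tested genes. The other 4 had adjusted p from 0.0517 (Loxl1) to 0.145 (Emilin1). The 6 called genes followed 3 patterns: Eln, Fbln2 and Lox were low in both high fat groups, Mfap4 and Fbln1 were low only where iron was given among the called comparisons, and Mfap5 was lower in each of the 3 contrasts. Of the 6 genes with an Arg-Gly-Asp codon run, Fbn1, Fbln2 and Mfap5 fell in HFD against CD, and Mfap4 and Mfap5 in HFD_IO against HFD, so the genes that carry the tripeptide did not move as one.

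The summed level of the 10 genes was 1290 to 1801 FPKM on chow, 1058 to 1180 in HFD and 655 to 931 in HFD_IO, without overlap. The make-up of that sum differed as well. Eln held 43.0% ± 2.31 of it on chow, 22.8% ± 5.19 in HFD and 33.9% ± 3.13 in HFD_IO. Mfap4 held 18.7% ± 0.384, 30.8% ± 3.98 and 14.9% ± 2.93. For both genes no library of 1 group overlapped another group. Emilin1 held 2.34% on chow, 4.33% in HFD and 7.26% in HFD_IO, and Mfap5 7.34%, 5.88% and 3.85%. A share can rise because other genes of the sum are lower, so these values describe proportion and not level.

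**Figure D3:**
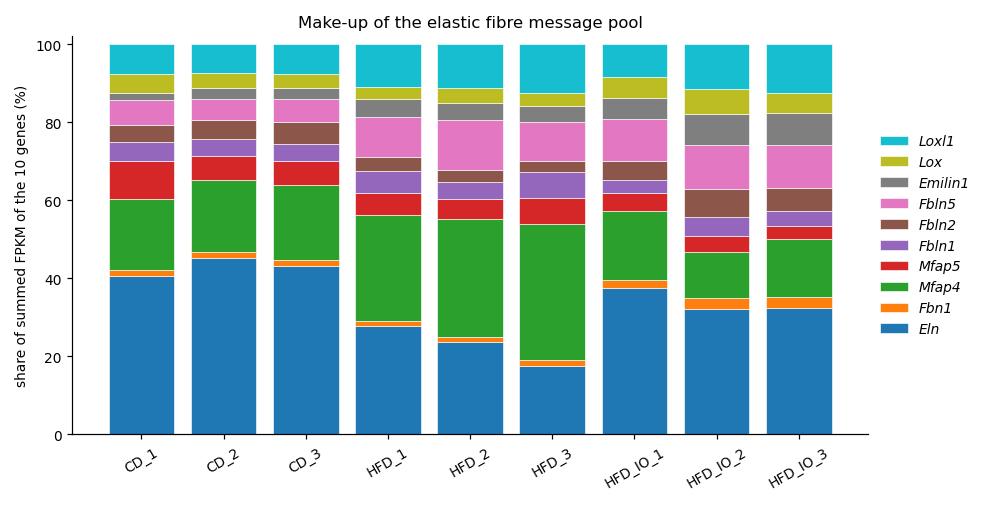
Share of each gene in the summed FPKM of the 10 genes (vertical axis, percent) in every library (bars). The Eln segment is 40.6 to 45.2% in CD, 17.4 to 27.7% in HFD and 32.0 to 37.5% in HFD_IO, and the Mfap4 segment is widest in HFD.

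Likeness of pattern was measured as the root mean square difference of log2(FPKM + 1) over the 9 libraries after each gene's mean was removed, where 0 means the same pattern. Among the 10 genes, the closest pair was Fbln5 and Loxl1 (0.239), followed by Fbn1 and Lox (0.266). Eln was closest to Fbln2 (0.323), Fbln2 to Lox (0.299) and Fbln1 to Loxl1 (0.28). Mfap4 and Mfap5 were closest to Fbln1 (0.393 and 0.413), and Emilin1 to Fbln5 (0.435). The farthest pair was Mfap5 and Emilin1 (1.11). Genes that vary little lie close to each other by this measure without sharing a pattern. The SD over the 9 libraries was lowest for Fbln5 (0.267) and was 0.339 for Loxl1. Emilin1, with an SD of 0.432, was no nearer to Fbln5 than that SD. Outside the 10, the nearest patterns to Eln among 4706 genes were those of Speg (0.155), Bmp4 (0.161), Tub (0.164), Asap2 (0.172) and Snrnp70 (0.183). Speg, a kinase of striated and smooth muscle, was at 32.9, 49.3 and 49.4 FPKM on chow, 23.1, 18.8 and 16.4 in HFD, and 21.5, 14.8 and 20.5 in HFD_IO, with CD_1 lowest on chow as for Eln. Bmp4, a growth factor of the transforming growth factor beta family, was at 62.2, 79.0 and 78.2 on chow, 32.3, 21.7 and 18.8 in HFD, and 29.8, 25.1 and 26.9 in HFD_IO.

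Other microfibril genes were called in both directions. Of 12 listed, 10 were tested, all but Fbn2 and Adamts17, whose levels were at most 0.277 FPKM. In HFD against CD 1 rose and 2 fell, in HFD_IO against HFD 1 rose and 4 fell, and in HFD_IO against CD 1 rose and 6 fell, with medians of -0.375, -0.364 and -0.75. Over all tested genes, 21.8% were called higher and 17.6% lower in HFD against CD, and 14.1% and 14.5% in HFD_IO against HFD. In HFD_IO against CD the shares were 17.5% and 15%, and these shares also serve for the lists that follow. The HFD against CD counts of the microfibril list lay near or below its shares. Adamts10, a metalloprotease that binds fibrillin, fell from 51.6, 57.2 and 55.2 FPKM on chow to 32.2, 21.9 and 21.1 in HFD (-1.12), and was at 25.1, 16.7 and 21.0 in HFD_IO (-1.36 against chow). Adamts6, of the same family, fell in HFD (-1.18). Thsd4, which promotes microfibril assembly, fell by 1.11 in HFD_IO against HFD, a call that ended without HFD_2, HFD_3, HFD_IO_1 or HFD_IO_2. Adamtsl2 fell by 0.93 against HFD, a call that ended without HFD_3, HFD_IO_1 or HFD_IO_2, and by 1.6 against CD. The other 2 that fell in HFD_IO against HFD were Ltbp1 (-0.88) and Mfap2 (-0.41), and Mfap2 was lost without any 1 of 7 libraries, CD_1 and HFD_IO_3 being the exceptions.

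Ltbp2, a microfibril protein of the latent TGF-beta binding family, was the listed microfibril gene that rose. It was at 9.13, 13.2 and 15.6 FPKM on chow, 18.3, 26.0 and 26.1 in HFD, and 35.5, 42.5 and 74.2 in HFD_IO, without overlap between any groups. Its rise of 1.88 in HFD_IO against CD held in every leave-out of 1 library. The rise of 0.86 in HFD against CD ended without CD_1, CD_2, HFD_2, HFD_3 or HFD_IO_2, and that of 1.03 in HFD_IO against HFD without HFD_1, HFD_3, HFD_IO_2 or HFD_IO_3.

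Of the other fibulin and emilin relatives, 6 of 8 were tested, without Hmcn1 and Emilin3. In HFD against CD Efemp2, fibulin-4, a partner of Lox in fibre assembly, rose by 0.55, and Mmrn2, an endothelial relative of the emilins, fell by 1.28. Efemp2 fell by 0.52 in HFD_IO against HFD, a call lost without HFD_3, HFD_IO_1 or HFD_IO_2. Emilin2 rose by 0.87 in HFD_IO against CD, lost without HFD_IO_2. No other gene of the list passed the test in any comparison, and its medians were 0.21, 0.11 and 0.10.

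The list of lysyl oxidase relatives and genes of Lox maturation, which includes copper delivery and the protease Bmp1 that trims pro-Lox, had 7 of 8 tested, without Tll1. While Lox fell in HFD, 2 copper genes rose: Atox1, a copper chaperone, by 1.00 (122, 103 and 101 FPKM to 217, 195 and 244) and Slc31a1, the copper importer, by 0.79. In HFD_IO against HFD only Loxl2 was called, higher by 0.30, and the call was kept only without CD_1 or HFD_1 among the 9 leave-outs. In HFD_IO against CD 3 rose (Slc31a1 by 0.74, Atox1 by 0.72 and Loxl2 by 0.43) and 1 fell (Bmp1, by 0.39). List medians were 0.06, 0.10 and 0.43.

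Integrins that bind the Arg-Gly-Asp proteins of the fibre had 7 of 8 tested, without Itgb6. In HFD against CD 4 rose and 1 fell (median 0.645), and the largest rises were Itgb1 (0.72), Itga8 (0.70) and Itgav (0.68). The fourth was Itgb5 (0.645), and Itgb3 fell by 0.66. In HFD_IO against HFD 1 rose, Itgb8 (0.58), and 2 fell. Itga8, a smooth muscle integrin chain, fell by 1.08, from 189, 239 and 260 FPKM in HFD to 112, 78.2 and 140 in HFD_IO, around its chow values of 110, 156 and 156. The other was Itgb1, which fell by 0.53, a call lost without HFD_2, HFD_3, HFD_IO_1 or HFD_IO_2. In HFD_IO against CD 2 rose, Itgb8 (0.87) and Itgav (0.69), and none fell. In HFD against CD the calls of Itga8 (without any 1 of CD_1, CD_2, CD_3, HFD_2, HFD_3 or HFD_IO_1), Itgb5 (CD_1, CD_3, HFD_2 or HFD_3) and Itgb3 (CD_2, CD_3 or HFD_2) ended when 1 library was left out.

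Several genes of proteases able to cut elastin rose in each comparison. Of 10 listed, 8 were tested, without Mmp7 and Elane. In HFD against CD 5 rose (Mmp12, Ctss, Ctsl, Ctsk and Cela1), in HFD_IO against HFD 4 (Mmp12, Ctsk, Mmp14 and Mmp2), and in HFD_IO against CD 7, with none lower. Medians were 1.56, 0.94 and 2.39. Mmp12, the macrophage elastase, was at 3.76, 2.45 and 2.30 FPKM on chow, 68.5, 46.9 and 27.5 in HFD, and 319, 184 and 138 in HFD_IO, a change of 5.74 between the outer groups. Ctss and Ctsk, lysosomal cathepsins with elastase activity, changed by 4.33 and 3.50 between CD and HFD_IO. Mmp14, a membrane-bound matrix metalloproteinase, rose by 1.5 in HFD_IO against HFD, and Mmp2 by 0.55, a call lost without HFD_2 or any 1 of the HFD_IO libraries. Summed over the list, the level was 203 to 221 FPKM on chow, 729 to 1340 in HFD and 1550 to 2450 in HFD_IO. Ctss alone was at 45.3 to 65.9, 332 to 738 and 756 to 1450 FPKM in these groups.

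Among these pathway genes, the HFD against CD calls of Ltbp2, Efemp2, Slc31a1, Itgb1, Itgb5 and Itga8 ended under TPM, as did those of Mfap2 and Itgb1 in HFD_IO against HFD and of Loxl2 and Slc31a1 in HFD_IO against CD. With the skeletal muscle covariate the HFD against CD calls of Ltbp2, Efemp2, Mmrn2, Itgb1, Itgb3, Itgb5 and Itga8 ended. In HFD_IO against HFD those of Mfap2, Ltbp1, Ltbp2, Adamtsl2, Thsd4, Efemp2, Loxl2, Itgb1, Itgb8, Itga8, Mmp2 and Mmp12 ended. The adipocyte covariate ended the HFD against CD calls of Ltbp2, Efemp2, Mmrn2, Itgb3, Itgb5 and Itga8. It also ended those of Mfap2, Ltbp2, Adamtsl2, Efemp2, Loxl2, Itgb8 and Mmp2 in HFD_IO against HFD. With gene length trends removed, Efemp2 and Itgb5 lost their HFD against CD calls. Mfap2, Efemp2, Loxl2 and Itgb8 then lost theirs in HFD_IO against HFD.

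**Figure D4:**
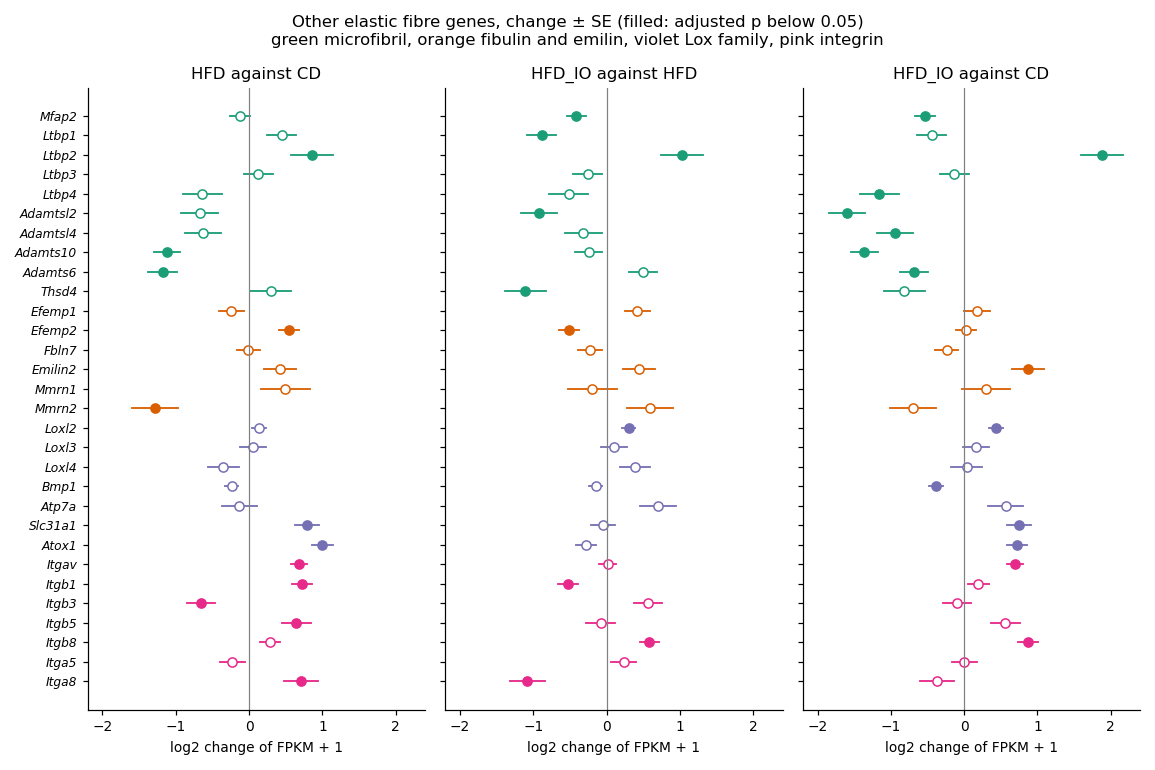
Log2 change of FPKM + 1 ± SE (horizontal axis) of the tested microfibril (green), fibulin and emilin (orange), Lox family (violet) and integrin (pink) genes outside the 10, in the 3 comparisons; filled points have an adjusted p below 0.05. Adamts10 and Adamtsl2 are left of 0 in all 3 panels, and Ltbp2 is right of 0 in all 3.

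Markers of the cell types of the aorta moved alongside, and their part in the changes of the elastic fibre genes was not tested. Marker counts in HFD against CD stand beside 21.8% of all tested genes called higher and 17.6% called lower. In bulk RNA, fewer cells of a type and less RNA per cell cannot be told apart. Smooth muscle markers, from the cells that make most aortic elastin, were mostly not called in HFD against CD, where Eln fell: of 10, Des rose (0.65) and Synpo2 fell (-0.79), with a median of 0.27 and summed levels of 5570 to 6260 FPKM on chow and 7150 to 8360 in HFD. Such sums, here and in the other lists, are carried by their most abundant genes. Acta2 alone was at 4260 to 4490 FPKM on chow and at 5420 to 6240 in HFD. Adventitial fibroblast markers summed to 1200 to 1320 and 1540 to 2000, with 2 of 10 higher, the collagen-binding proteoglycans Lum (2.67) and Dcn (0.97), and none lower. The mean of Lum was 50.9 FPKM on chow and 325 in HFD, and that of Dcn 168 and 329. Endothelial markers fell for 9 of 10 (median -1.30), from 489 to 714 FPKM down to 169 to 305, and macrophage markers rose for 9 of 10 (1.78), from 620 to 712 up to 3040 to 5090. Of the macrophage sum, Lyz2 alone was 212 to 342 FPKM on chow and 1670 to 3280 in HFD.

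In HFD_IO against HFD, where Mfap4, Mfap5, Fbln1 and Loxl1 fell, 7 of 10 smooth muscle markers (median -0.998) and 6 of 10 adventitial fibroblast markers (-0.69) fell as well. Their summed levels in HFD_IO were 2570 to 4360 and 1110 to 1250 FPKM. The shares over all tested genes were 14.1% higher and 14.5% lower. Macrophage markers rose for 8 of 10 (0.83), to 4950 to 8480 FPKM, and 3 of 10 endothelial markers rose (Cdh5, Tie1 and Erg, list median 0.46), to a sum of 330 to 382 FPKM. The Eln difference between these groups was 0.15 while the smooth muscle median was -0.998. Among the contractile genes, Cnn1 changed by -1.53, Acta2 by -1.23 and Tagln by -1.13. In HFD_IO against CD 8 of 10 smooth muscle markers fell (median -0.83), and of the adventitial markers 5 fell and Lum (3.05) and Dcn (0.68) rose. In that comparison 5 of 10 endothelial markers fell (median -0.70), and all 10 macrophage markers rose (2.89), beside 15% of all tested genes called lower and 17.5% called higher. No smooth muscle, adventitial, endothelial or macrophage marker was at 0 in any library.

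Markers of fat, skeletal muscle, cartilage and mesothelium were also present at differing levels, and the source of this RNA was not tested. White adipocyte markers summed to 535 to 1140 FPKM on chow, 1220 to 3130 in HFD and 517 to 2030 in HFD_IO, and 4 of 10 (Cidec, Fabp4, Lep and Lpl) rose in HFD against CD. In HFD_IO against HFD Cidec and Lep fell and Lpl rose (1.78). Skeletal muscle markers summed to 5.24 to 10.9, 7.45 to 107 and 4.47 to 20. Within HFD the sum was 7.45 FPKM in HFD_1, inside the chow range, and 107 and 66.2 in HFD_2 and HFD_3. Of 6 tested, Acta1 and Tnni2 rose in HFD against CD. In HFD_1, HFD_2 and HFD_3 Acta1 was at 2.16, 51.3 and 31.3 FPKM and Tnni2 at 0.496, 9.39 and 5.51. Mb, Myh1, Myh4 and Pvalb were at 0 in at least 1 library. Cartilage markers summed to 35.2 to 52.0, 54.4 to 125 and 173 to 628 FPKM, and 6 of 8 tested rose in HFD against CD, 4 in HFD_IO against HFD and 7 in HFD_IO against CD. Mesothelial markers summed to 23.5 to 59.0, 18.1 to 24.1 and 12.0 to 15.4, and all 5 tested fell in HFD_IO against CD. Their part in the elastic fibre results was likewise not tested, beyond the covariate values given above.

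**Figure D5:**
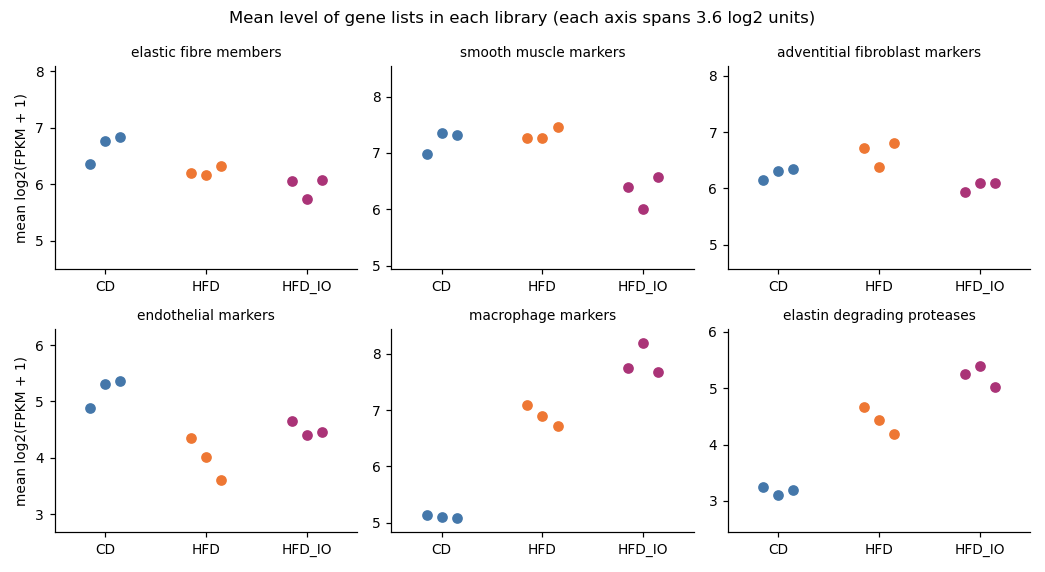
Mean log2(FPKM + 1) of gene lists in each library (points; CD blue, HFD orange, HFD_IO purple); every vertical axis spans the same number of log2 units and does not start at 0. The elastic fibre mean is 6.35 to 6.84 in CD, 6.16 to 6.33 in HFD and 5.74 to 6.08 in HFD_IO, while smooth muscle markers are lower only in HFD_IO and macrophage markers are higher in each group than in the one before.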

How the data were processed

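Gene expression was measured by RNA sequencing in 9 Apoe-/- mouse aortas, 3 per group. The authors deposited FPKM values in a table that has a column for each library and gives gene lengths. The submitters' processing notes name HISAT2 and hg38, a human build; the gene identifiers are mouse, and 54409 of 54532 are in GENCODE M21 (98.3% of these at the same GRCm38 coordinates). Neither the counting tool nor its strand setting is given in the sources used here. Columns carry a group and a number that no sample label repeats, so each was assigned to its group only. FPKM times gene length gave whole reads for 100% of values, within 0.05 of a read. The scale of each library followed a size factor, the median ratio of its gene counts to their means over the 9 libraries, not its read total. The depth used was 1.046 to 1.104 times the read total in CD, 0.8949 to 1.001 in HFD and 0.9938 to 1.01 in HFD_IO. Such a scale aligns the median gene between libraries, so medians near 0 over all tested genes follow largely from it.

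Changes were computed on log2(FPKM + 1), which understates changes of weakly expressed genes. The 13883 genes with at least 1 FPKM in at least 3 libraries entered 1 linear model with 3 group means in limma 3.58.1 (R 4.3.3) with a mean-variance trend. P-values were adjusted by Benjamini-Hochberg over all tested genes in each comparison, at a threshold of 0.05. Alternatives covered pseudocounts, filters, scalings, voom on recovered reads, variance models, library weights, covariates, a gene length trend and left-out libraries; for the 46 other pathway genes they were added after seeing the data. The calculations were tested on simulated data. The 10 members, the 5 pathway lists and the 8 marker lists were chosen with earlier results of these data known. All 10 members are named, with up to 3 genes of each pathway list with the largest change past the threshold, the nearest pattern to each member, and the 5 nearest to Eln among genes with a mean of at least 10 FPKM, without predicted genes. Other list genes, named to complete a count or as markers, were chosen after their values were seen.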

Additional observations from a re-analysis of the deposited data

How the results depend on the processing

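Of 30 gene results (10 genes in 3 comparisons), 14 kept their call under all 25 alternatives, 16 gained or lost it under at least 1, and none that was called changed direction. With the mean of the skeletal muscle markers as a covariate, the number of elastic fibre genes past the threshold went to 2 in HFD against CD (5 without it) and to 1 in HFD_IO against HFD (4 without it). The cause was not tested, but calls over all genes also fell under this covariate, from 5470 to 1463 and from 3969 to 958, and under the adipocyte covariate to 1923 and 1777. Leaving out 1 library at a time gave 3 to 7 genes in HFD_IO against HFD, the 7 without CD_1 (5 lower and 2 higher). Over all genes, HFD_IO against HFD had 2275 calls without HFD_3, 2551 without HFD_IO_1 and 2511 without HFD_IO_2. Rescaling to TPM put the median of all genes at -0.295, 0.143 and -0.232 in HFD against CD, HFD_IO against HFD and HFD_IO against CD, compared with 0.06, 0 and -0.01 as deposited. The split of calls was then 1018 higher and 4948 lower, 2373 and 1160, and 1528 and 3800. With library totals it was 1866 and 3363 in HFD against CD and 2035 and 2753 in HFD_IO against CD. Under TPM the uncalled HFD against CD differences of Fbln5, Loxl1, Mfap4 and Emilin1 changed sign (-0.036, -0.303, -0.217 and -0.015), Fbln1 was called lower there (-0.608) and Lox higher in HFD_IO against HFD (0.495). Of 52 calls among the other pathway genes, 36 held in every leave-out, 16 were lost in some and 0 reversed. No paired analysis was possible because the sample labels give the groups no replicate number in common, and the numbers in the column names are not tied to animals, litters or days. Groups of 3 aortas limit the precision more than read depth does here.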
